A study of Mus musculus with 12 samples.

Results

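Transcripts of 10 genes of growth factor and colony-stimulating factor signaling were followed in mouse bone marrow-derived macrophages (BMDMs) after stimulation of the beta-2 adrenergic receptor (B2AR). They were chosen by name from the 53379 genes of the count table, by a list that was written with earlier results of these data known. *Areg*, *Ereg*, *Hbegf* and *Tgfa* encode ligands of the epidermal growth factor (EGF) family, *Igf1* encodes insulin-like growth factor 1, *Pdgfa* and *Pdgfb* encode the chains of platelet-derived growth factor, *Csf1* encodes colony-stimulating factor 1 (CSF1), *Csf1r* encodes its receptor and *Csf2ra* encodes the alpha chain of the receptor for GM-CSF. The cells came from 4 male C57Bl/6J mice, and BMDMs from every mouse received either no treatment or 1 μM fenoterol, a B2AR-specific agonist, for 1 h or for 4 h. This gave 3 groups of 4 libraries, with every mouse in every group and no genetic change in any of them. All cells were differentiated and stimulated in medium with L929 cell conditioned medium, which supplies CSF1 protein, so that *Csf1* transcripts are not the only source of the ligand in the dish.

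The libraries held 14580533 to 24153284 counts. Values are given as counts-per-million (CPM) scaled by the TMM method, an error after ± is the SD of 4 mice, and p-values come from edgeR's quasi-likelihood test with Benjamini-Hochberg adjustment over the 12386 genes that passed a filter on low counts. An adjusted p under 0.05 is called a change. The summed level of 6 macrophage markers (*Adgre1*, *Itgam*, *Cd68*, *Mertk*, *Fcgr1* and *Lyz2*) was 31927 to 33353 CPM in untreated libraries, 28462 to 33280 CPM at 1 h and 26938 to 30510 CPM at 4 h, and summed markers of T cells, B cells, mast cells and erythroid cells were at most 0.627 CPM in a library. Other sums were higher. They reached 66.6 CPM for fibroblast and stromal, 34.5 for granulocyte, 22.4 for endothelial, 19.9 for osteoclast and 1.32 for dendritic cell markers, and are described below. The median log2 fold change of all genes was -0.0049 at 1 h and 0.0042 at 4 h. Fewer cells with a transcript and less of that transcript per cell cannot be told apart in these bulk libraries.

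EGF family ligands are made as membrane-anchored precursors, are released by metalloproteases and signal through ErbB receptors on neighboring cells. Macrophages are a source of such ligands, of IGF1 and of PDGF during tissue repair, and they need signals through CSF1R, a receptor tyrosine kinase, to survive and differentiate. B2AR raises cAMP and activates the transcription factor CREB, which binds the cAMP response element (CRE), a short palindrome found near the start sites of many rapidly induced genes.

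RefSeq promoter windows (GRCm38.p6, 250 bases before to 50 bases after a start site) were at hand for 6 of the 10 genes. The full CRE, written TGACGTCA and searched on both strands, was present in the windows of *Areg* and *Csf2ra*, which is 2 of these 6 genes. It was present in 588 of 32851 promoters of that length (1.79%). The shorter TGACG, which is contained in the CRE and was searched on both strands, was found in 3 of the 6 genes and in 20.8% of all promoters. The 120 bases before the start site are shown for *Areg* and *Csf2ra*, for *Errfi1*, a feedback inhibitor of EGF receptor signaling that also has a CRE, and for *Csf1*, which has none. Each is printed 5′ to 3′ on the strand of the gene. Capitals mark the CRE and, where present, the TATA box searched as TATAAA on the strand of the gene, which 8.32% of all promoters hold.
Areg (chr5:91139479-91139598, plus strand): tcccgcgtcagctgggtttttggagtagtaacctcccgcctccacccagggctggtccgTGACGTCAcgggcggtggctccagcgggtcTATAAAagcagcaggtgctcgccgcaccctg
Csf2ra (chr19:61228419-61228538, minus strand): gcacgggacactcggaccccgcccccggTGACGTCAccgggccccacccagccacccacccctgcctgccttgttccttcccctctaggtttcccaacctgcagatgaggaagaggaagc
Errfi1 (chr4:150854950-150855069, plus strand): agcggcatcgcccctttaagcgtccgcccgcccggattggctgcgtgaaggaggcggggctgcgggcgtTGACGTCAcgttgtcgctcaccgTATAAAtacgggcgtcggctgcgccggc
Csf1 (chr3:107760470-107760589, minus strand): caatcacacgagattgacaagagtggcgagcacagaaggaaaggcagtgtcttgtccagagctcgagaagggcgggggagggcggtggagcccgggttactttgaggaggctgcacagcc

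The CRE began 61 bases before the start site of *Areg*, 92 bases before that of *Csf2ra* and 51 bases before the start site of *Errfi1* that is shown. A second RefSeq window of *Errfi1* (chr4:150853546-150853845) held no match to any of the 3 motifs. The window of *Csf2rb2*, a receptor gene that rose at both times (below), also held no match to any of them. The TATA box began 31 bases before the start site of *Areg* and 28 bases before that same start site of *Errfi1*. A match describes the letters of the window, and binding was not measured.

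Of the EGF family ligands, *Areg* and *Hbegf* were higher at 1 h than in untreated BMDMs and lower at 4 h than at 1 h, and both were rare transcripts. *Areg* (ENSMUSG00000029378, GRCm38 chr5:91139599-91148432, plus strand) encodes amphiregulin, a ligand of the EGF receptor. It had 0 counts in each of the 4 untreated libraries, 8, 7, 5 and 3 counts in mice 1 to 4 at 1 h, and 0 counts in each of the 4 libraries at 4 h. The transcript was thus seen in every mouse at 1 h and in no library of the other groups. The 23 counts at 1 h amounted to 0.293 CPM over the group, without TMM scaling (exact Poisson interval 0.186 to 0.439, counting error only). A group of libraries with no count allows at most 0.0399 CPM in untreated BMDMs and 0.0367 CPM at 4 h, taking 3 counts over the group as the limit. Taking the 23 counts at 1 h as they stand, without their counting error, the level at 1 h was at least 7.33-fold higher than in untreated BMDMs and at least 7.98-fold higher than at 4 h. *Areg* did not reach the 0.504 CPM in 4 libraries that the filter asked for, so no test is given for it.

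*Hbegf* (ENSMUSG00000024486, GRCm38 chr18:36504927-36515805, minus strand) encodes heparin-binding EGF-like growth factor. Its level in mice 1 to 4 was 0.618, 0.819, 0.442 and 0.549 CPM in untreated BMDMs, 1.36, 2.64, 1.25 and 0.993 CPM at 1 h, and 0.425, 0.957, 0.236 and 0.477 CPM at 4 h. These levels rest on 9 to 14 counts in untreated libraries, 19 to 46 at 1 h and 5 to 18 at 4 h. All 4 libraries at 1 h were above all libraries of the other groups, and mouse 2 was highest in each group. *Hbegf* rose 2.58-fold at 1 h (95% confidence interval 1.42 to 4.67, log2 fold change 1.36 with SE 0.40, adjusted p = 0.0256, higher in 4 of 4 mice). From 1 h to 4 h it fell by 1.57 on the log2 scale (SE 0.40, adjusted p = 0.00643), and at 4 h its log2 fold change against untreated BMDMs was -0.21 (SE 0.45, adjusted p = 0.757). The call at 1 h was lost when untreated mouse 1, 3 or 4 was left out (log2 fold changes 1.38, 1.24 and 1.33, adjusted p = 0.0600, 0.0723 and 0.0625) or when mouse 2 at 1 h was left out (1.00, adjusted p = 0.102), and over all its alternatives the adjusted p lay between 0.00196 and 0.102.

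The remaining EGF family ligands of the set were at or next to 0. *Ereg* (ENSMUSG00000029377, GRCm38 chr5:91074622-91093646, plus strand), which encodes epiregulin and lies beside *Areg*, had 1 count in all, in mouse 2 at 1 h. *Tgfa* (ENSMUSG00000029999, GRCm38 chr6:86195223-86275719, plus strand), which encodes transforming growth factor alpha, had 0 counts in all 12 libraries, which allows up to 0.0399 CPM without treatment, 0.0382 CPM at 1 h and 0.0367 CPM at 4 h. No change of either gene was detectable at this depth.

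**Figure D1:**
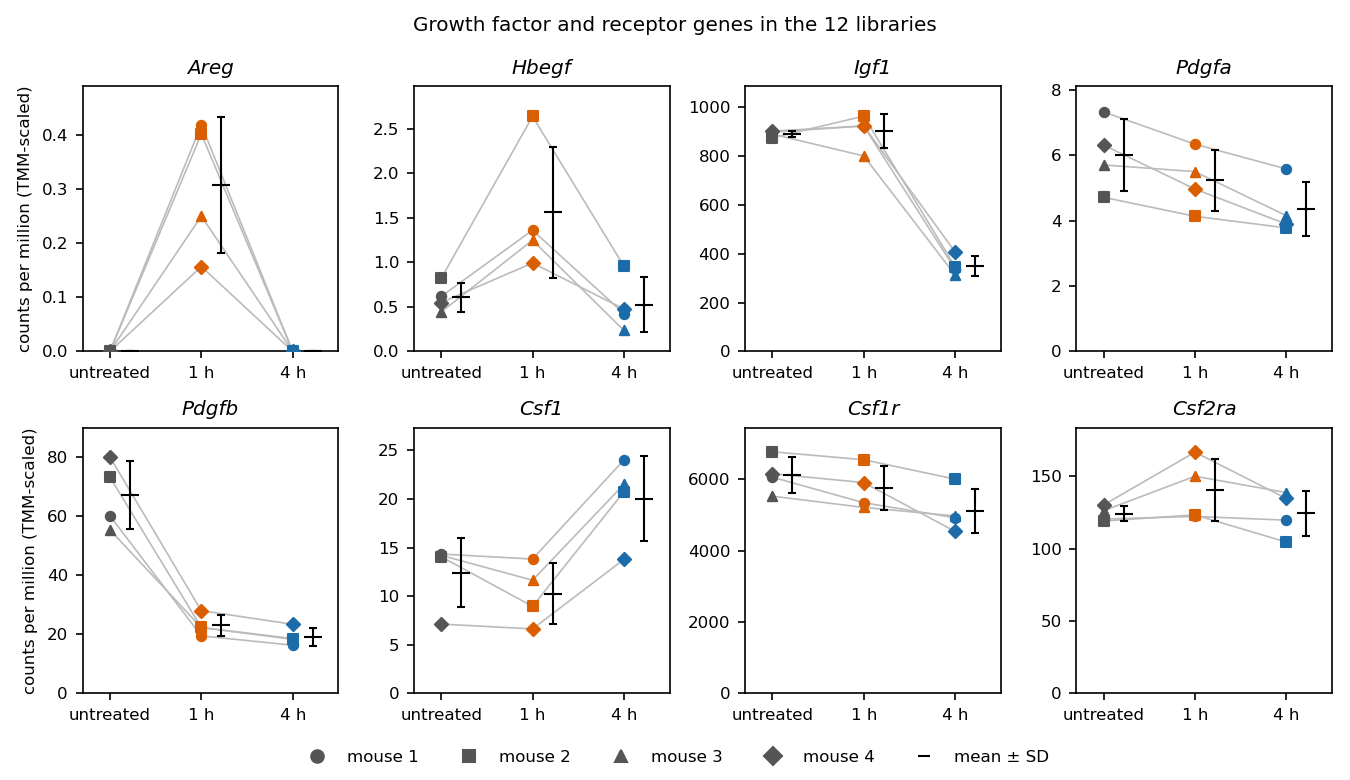
Levels of 8 genes in each library, in TMM-scaled CPM on linear axes that start at 0, for untreated BMDMs and after 1 h and 4 h of fenoterol; symbols and grey lines mark the 4 mice and black bars the mean ± SD. *Areg* is at 0 in all libraries but those of 1 h, *Igf1* is at 313 to 408 CPM at 4 h against 876 CPM or more in untreated cells, and mouse 4 is lowest for *Csf1* in every group.

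*Igf1* and *Pdgfb* were the growth factor genes of the set with abundant transcripts, and both fell, *Pdgfb* by 1 h and *Igf1* between 1 h and 4 h. *Igf1* (ENSMUSG00000020053, GRCm38 chr10:87858265-87937042, plus strand) encodes a trophic factor that macrophages secrete in injured tissue. Its level in mice 1 to 4 was 899, 876, 891 and 903 CPM in untreated BMDMs, 924, 964, 801 and 924 CPM at 1 h, and 337, 347, 313 and 408 CPM at 4 h. The libraries at 4 h lay far below the others, which overlapped. The mean was 892 ± 11.9 CPM in untreated BMDMs, 903 ± 70.7 CPM at 1 h and 351 ± 40.1 CPM at 4 h. The log2 fold change was 0.02 at 1 h (SE 0.08, adjusted p = 0.915) and -1.34 at 4 h (SE 0.08, adjusted p = 4.65e-09), a 2.54-fold lower level in 4 of 4 mice. Between 1 h and 4 h, *Igf1* fell by 1.36 on the log2 scale (SE 0.08, adjusted p = 6.82e-09).

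*Pdgfb* (ENSMUSG00000000489, GRCm38 chr15:79995874-80014977, minus strand) encodes the B chain of PDGF, a mitogen for fibroblasts and pericytes. Its level in mice 1 to 4 was 60.1, 73.2, 55.3 and 80.0 CPM in untreated BMDMs, 19.5, 22.3, 22.3 and 28.0 CPM at 1 h, and 16.3, 18.6, 18.3 and 23.4 CPM at 4 h. Every treated library was below every untreated one, while the libraries of 1 h and 4 h overlapped. *Pdgfb* was 2.91-fold lower at 1 h (log2 fold change -1.54, SE 0.14, adjusted p = 1.03e-06) and 3.49-fold lower at 4 h (-1.80, SE 0.14, adjusted p = 1.04e-07). The step from 1 h to 4 h was -0.26 (SE 0.14, adjusted p = 0.167), lower in 4 of 4 mice, and it passed the threshold with the mouse as a block (-0.27, adjusted p = 0.00685).

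*Pdgfa* (ENSMUSG00000025856, GRCm38 chr5:138976014-138997370, minus strand), which encodes the A chain, had a lower level. Mice 1 to 4 had 7.32, 4.71, 5.70 and 6.31 CPM untreated, 6.33, 4.13, 5.50 and 4.96 CPM at 1 h, and 5.58, 3.78, 4.15 and 3.89 CPM at 4 h. Mouse 1 was highest and mouse 2 lowest in every group, the groups overlapped, and each mouse was lower at each later time. The log2 fold change was -0.21 at 1 h (SE 0.18, adjusted p = 0.487) and -0.48 at 4 h (SE 0.18, adjusted p = 0.0444). The call at 4 h was lost in 11 of 21 alternatives, among them leaving out untreated mouse 1, 3 or 4, mouse 3 or 4 at 1 h, or mouse 2, 3 or 4 at 4 h, and its adjusted p ranged from 0.00424 to 0.147. The call of *Pdgfa* was kept with the mouse as a block, a term that the fits with a library left out did not have. Of its exon bases, 26.1% are overlapped on the opposite strand by 6330403L08Rik, which had 774 counts in all against 1226 for *Pdgfa*, and the strand option of the counting is not given in the sources used here.

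The genes of the CSF1 axis moved in opposite directions, with more *Csf1* and slightly less *Csf1r* at 4 h. *Csf1* (ENSMUSG00000014599, GRCm38 chr3:107741048-107760469, minus strand) had 14.3, 14.1, 14.2 and 7.13 CPM in mice 1 to 4 untreated, 13.8, 8.95, 11.6 and 6.64 CPM at 1 h, and 24.0, 20.7, 21.5 and 13.8 CPM at 4 h. The libraries of 4 h overlapped with the others only through mouse 4, which had the lowest level in every group, and each mouse was highest at 4 h. *Csf1* was 1.60-fold higher at 4 h than untreated (95% confidence interval 1.12 to 2.31, log2 fold change 0.68 with SE 0.24, adjusted p = 0.0381), with log2 differences within a mouse from 0.56 to 0.95. From 1 h to 4 h it rose 1.94-fold (log2 fold change 0.96, SE 0.25, adjusted p = 0.00676), and at 1 h against untreated BMDMs the log2 fold change was -0.28 (SE 0.25, adjusted p = 0.519).

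The call for *Csf1* at 4 h was lost without untreated mouse 2 (log2 fold change 0.74, adjusted p = 0.0508), without untreated mouse 4 (0.48, adjusted p = 0.106), and without mouse 1, 2 or 3 at 4 h (0.58, 0.66 and 0.65, adjusted p = 0.105, 0.0740 and 0.0830), while over all alternatives adjusted p ranged from 8.39e-06 to 0.106. The call was kept with the mouse as a block, a term that the fits with a library left out did not have. Fibroblasts also express *Csf1*, and the summed level of 6 fibroblast and stromal markers in mice 1 to 4 was 66.6, 52.9, 47.0 and 21.5 CPM untreated, 59.7, 57.4, 53.3 and 33.9 CPM at 1 h, and 63.7, 30.2, 48.7 and 24.2 CPM at 4 h. Mouse 4 was lowest in every group for these markers as for *Csf1*. Of the 6 markers, *Lum* was at 0 in all 12 libraries, *Dcn* had 0 to 9 counts and *Pdgfra* 1 to 11, and the sums came mainly from the collagen genes *Col1a1*, *Col1a2* and *Col3a1*. The 3 collagen genes did not pass the test at 4 h (log2 fold changes -0.23, -0.22 and 0.16, adjusted p = 0.612, 0.662 and 0.725), and the part of such cells in the level of *Csf1* was not tested.

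**Figure D2:**
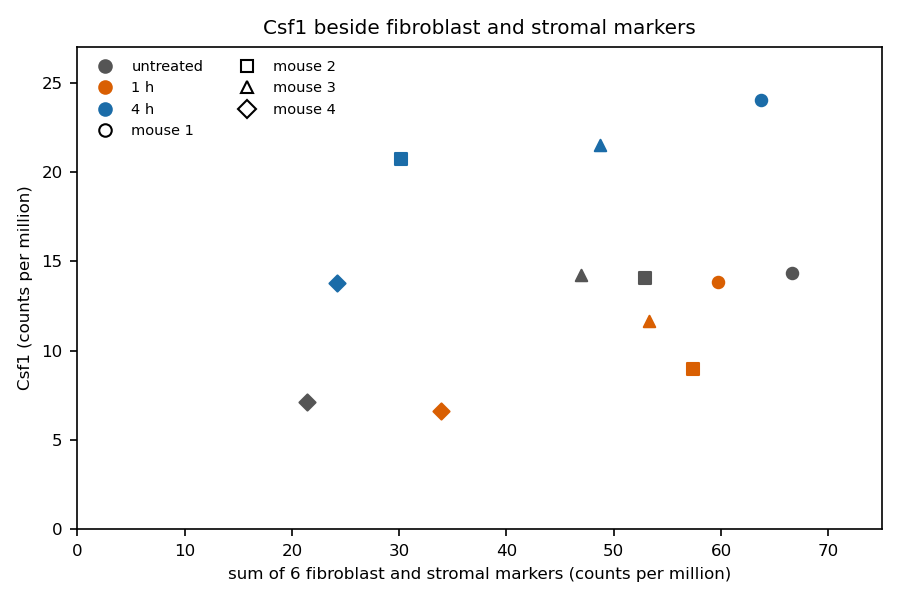
*Csf1* level (vertical axis) against the summed level of 6 fibroblast and stromal markers (horizontal axis), both in TMM-scaled CPM, with 1 point for each of the 12 libraries, colored by group and shaped by mouse. Mouse 4 has the lowest value on both axes within each group, and at 4 h the points lie above those of the same mouse untreated, with marker sums of 24.2 to 63.7 CPM.

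*Csf1r* (ENSMUSG00000024621, GRCm38 chr18:61100598-61132149, plus strand) was the most abundant transcript of the set. Its level in mice 1 to 4 was 6059, 6772, 5527 and 6155 CPM in untreated BMDMs, 5343, 6548, 5212 and 5908 CPM at 1 h, and 4922, 6005, 4973 and 4539 CPM at 4 h. The groups overlapped, and every mouse was lower at 4 h than at 1 h and untreated. The fall at 4 h was 16.6% (log2 fold change -0.26, SE 0.09, adjusted p = 0.0394), against -0.09 on the same scale at 1 h (SE 0.09, adjusted p = 0.582). The call at 4 h was lost without untreated mouse 1, 2 or 4 (adjusted p = 0.0636, 0.121 and 0.0660), without mouse 1, 3 or 4 at 4 h (0.0873, 0.0862 and 0.115), and with limma-trend (0.0576), and over all alternatives the adjusted p lay between 0.000319 and 0.121. The call at 4 h was kept with the mouse as a block, a term that the fits with a library left out did not have. The step from 1 h to 4 h (-0.17, SE 0.09, adjusted p = 0.175) passed the threshold with the mouse as a block (-0.17, adjusted p = 0.00996) and without mouse 2 at 4 h (-0.26, adjusted p = 0.0343). On the opposite strand, *Hmgxb3* overlaps 15.1% of its exon bases and had 8820 counts in all against 1319976 for *Csf1r*. Macrophage markers moved with it at 4 h in both directions. The summed level of the 6 markers was lower in every library of 4 h than in every untreated one, *Mertk*, *Adgre1* and *Cd68* were lower (log2 fold changes -1.51, -0.21 and -0.22, adjusted p = 5.13e-11, 0.0183 and 0.0296), *Itgam* and *Fcgr1* were higher (0.42 and 0.72, adjusted p = 7.59e-06 and 0.00073), and *Lyz2* was at -0.18 (adjusted p = 0.0704). Their part in the fall of *Csf1r* was not tested.

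The genes of transcription factors known to act on *Csf1r* included several that changed at both times. Of 6 such genes, 2 rose and 2 fell at each time (*Ets2* and *Cebpb* higher, *Cebpa* and *Irf8* lower), and *Spi1* and *Runx1* did not pass the test, which had no term for the mouse. *Runx1* was lower in 4 of 4 mice at both times (log2 fold changes -0.13 and -0.09, adjusted p = 0.258 and 0.355). *Spi1* was lower in 4 of 4 mice at 1 h and in 3 of 4 at 4 h (-0.15 and -0.05, adjusted p = 0.0952 and 0.517). Over all tested genes, 20.1% were called at 1 h and 40.0% at 4 h. *Ets2*, an ETS family factor, was at 27.1 CPM untreated, 283 CPM at 1 h and 103 CPM at 4 h (means of 4 mice), 10.4-fold and 3.80-fold above untreated (log2 fold changes 3.38 and 1.93, adjusted p = 1.61e-12 and 2.4e-10). *Cebpb* was 8.29-fold higher at 1 h and 3.53-fold higher at 4 h (adjusted p = 5.05e-10 and 8.46e-08), and *Cebpa*, a regulator of early myeloid differentiation, was 1.83-fold lower at 1 h and 2.75-fold lower at 4 h (adjusted p = 1.9e-07 and 6.27e-10). The median log2 fold change of the 6 genes was -0.14 at 1 h and -0.07 at 4 h.

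*Csf2ra* did not pass the test at any time, while the beta chains of the same receptor family rose. *Csf2ra* (ENSMUSG00000059326, GRCm38 chr19:61223957-61228429, minus strand) encodes the chain that makes the GM-CSF receptor specific for its ligand, and the signaling chain is encoded by *Csf2rb*. *Csf2ra* had 120, 119, 126 and 130 CPM in mice 1 to 4 untreated, 122, 123, 150 and 167 CPM at 1 h, and 120, 105, 139 and 135 CPM at 4 h. The groups overlapped, with mice 3 and 4 above mice 1 and 2 in every group, untreated included. The log2 fold change was 0.18 at 1 h (SE 0.10, adjusted p = 0.266), 0.01 at 4 h (95% confidence interval -0.22 to 0.23, adjusted p = 0.974) and -0.18 from 1 h to 4 h (adjusted p = 0.204). With the mouse as a block, the values at 1 h and from 1 h to 4 h passed the threshold (0.17 and -0.17, adjusted p = 0.0439 and 0.0257).

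*Csf2rb* (ENSMUSG00000071713, GRCm38 chr15:78325752-78353847, plus strand) is shared by the receptors for GM-CSF, IL-3 and IL-5. It had 449, 471, 389 and 435 CPM in mice 1 to 4 untreated, 807, 897, 690 and 791 CPM at 1 h, and 1181, 1228, 1009 and 1057 CPM at 4 h. The 3 groups did not overlap and rose in order of time, by 1.83-fold at 1 h (log2 fold change 0.87, SE 0.09, adjusted p = 3.24e-06) and 2.57-fold at 4 h (1.36, SE 0.09, adjusted p = 1.55e-08). Its neighbor *Csf2rb2* (ENSMUSG00000071714, GRCm38 chr15:78282507-78305721, minus strand), the IL-3-specific beta chain of mice, rose 1.28-fold at 1 h (0.35, SE 0.07, adjusted p = 0.00179) and 2.15-fold at 4 h (1.11, SE 0.07, adjusted p = 1.08e-08). The genes are close copies, with 12.3% of the 50-base stretches of *Csf2rb* found also in other genes, among them *Csf2rb2*, and 18.9% of those of *Csf2rb2* found also in other genes, among them *Csf2rb*, so reads could be split between them. Other cytokine genes of this group had few counts: *Csf2*, which encodes GM-CSF, had 0 counts in all 12 libraries, and *Il34*, the other ligand of CSF1R, had 0 to 4 counts in a library.

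**Figure D3:**
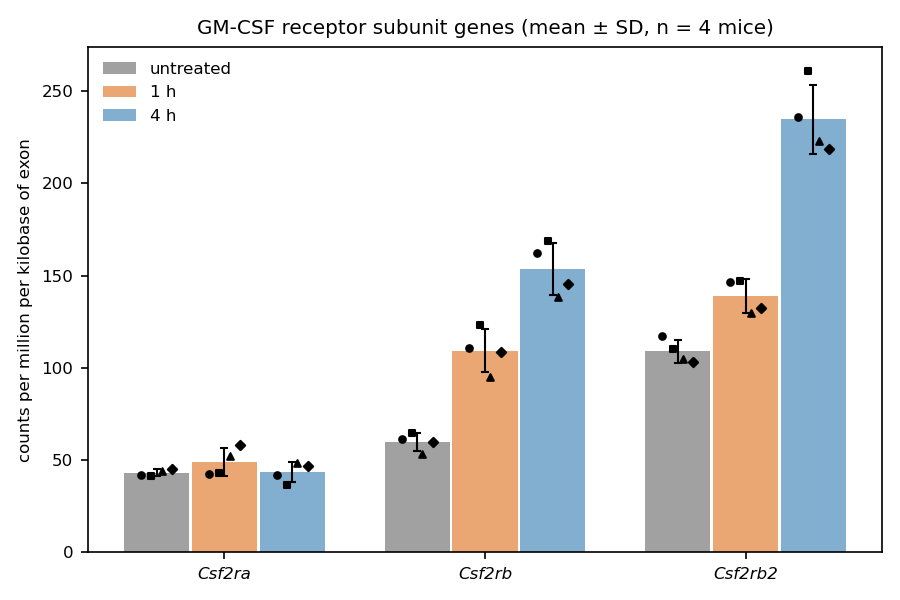
Levels of *Csf2ra*, *Csf2rb* and *Csf2rb2* in TMM-scaled CPM per kilobase of exon, on a linear axis from 0; bars are means of 4 mice with SD, and symbols are the libraries. The mean of *Csf2ra* stays between 43.2 and 49.0, while those of *Csf2rb* go from 59.9 to 154 and those of *Csf2rb2* from 109 to 235.

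Of the set, 2 of the 7 tested genes of the set changed at 1 h, *Hbegf* higher and *Pdgfb* lower, where 20.1% of all tested genes were called, 10.0% higher and 10.1% lower. At 4 h, *Csf1* was higher and *Igf1*, *Pdgfb*, *Csf1r* and *Pdgfa* were lower, where 40.0% of all genes were called, 19.7% higher and 20.4% lower. Between 1 h and 4 h, *Csf1* rose and *Igf1* and *Hbegf* fell, where 38.5% of all genes were called, 18.7% higher and 19.8% lower. The 3 comparisons share libraries, and the 3 genes that were not tested had at most 8 counts in a library. Scaling by library size alone gave 32.5% of calls as higher at 1 h against 49.8% with TMM scaling, 53.4% against 49.2% at 4 h, and 65.7% against 48.6% between the time points. Under library size alone no called value of the 7 genes changed its direction, and *Pdgfa* at 4 h was no longer called (adjusted p = 0.0541).

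**Figure D4:**
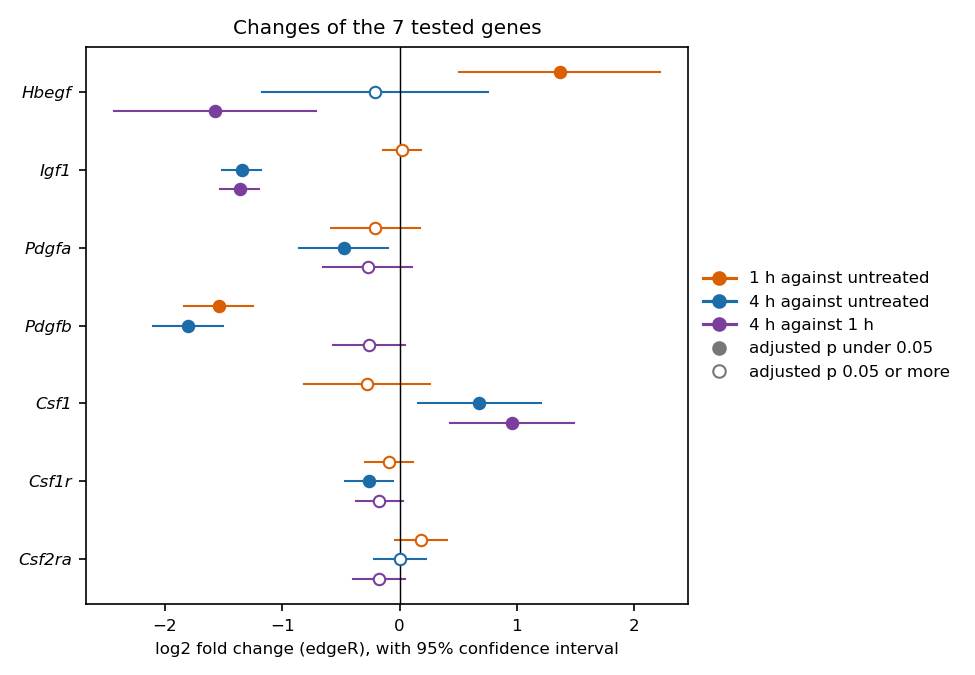
Log2 fold changes of the 7 tested genes from edgeR with 95% confidence intervals, for 1 h and 4 h against untreated BMDMs and for 4 h against 1 h; filled points have an adjusted p under 0.05. *Hbegf* is up at 1 h, *Pdgfb* is down at both times, *Igf1* is down by 1.34 and *Csf1* up by 0.68 at 4 h, and the intervals of *Csf2ra* include 0.

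Per kilobase of exon, the levels of the set spanned a wide range in untreated BMDMs. *Csf1r* had 1061 ± 88.4 CPM per kilobase, followed by *Igf1* with 90.1 ± 1.20, *Csf2ra* with 43.2 ± 1.80 and *Pdgfb* with 16.1 ± 2.74, and these did not overlap with their neighbors in the order. *Csf1* with 2.35 ± 0.67 and *Pdgfa* with 1.93 ± 0.35 overlapped, and *Hbegf* was far lower at 0.126. At 4 h, *Csf2ra* at 43.3 CPM per kilobase (36.4 to 48.3) stood above *Igf1* at 35.5 (31.6 to 41.1), with overlapping libraries, and *Pdgfb* at 4.60 (3.92 to 5.62) overlapped with *Csf1* at 3.79 (2.61 to 4.55). At 1 h, *Areg* reached 0.129 to 0.345 CPM per kilobase and overlapped with *Hbegf* at 0.205 to 0.546.

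Other genes of these pathways came from 8 lists of 70 genes, of which 46 were tested. At 1 h, 10 of the 46 were higher and 3 lower, at 4 h 13 were higher and 14 lower, and between the time points 3 were higher and 20 lower. Over all tested genes, 20.1%, 40.0% and 38.5% were called in these comparisons. Of all tested genes, 10.0% were higher and 10.1% lower at 1 h, 19.7% and 20.4% at 4 h, and 18.7% and 19.8% between the time points. Of the calls on the lists, 76.9% were higher at 1 h and 13.0% between the time points, against 64.3% and 29.2% when libraries were scaled by size alone. Of the calls over all tested genes, 49.8% and 48.6% were higher with TMM scaling. The lists were written with earlier results of these data known. With the mouse as a block, 19, 29 and 30 genes of the lists were called, of which 63.2%, 44.8% and 20.0% were higher. Of the 46 genes, 5 needed a particular group of libraries to pass the filter on low counts, and among the other 41 the counts were 10 higher and 3 lower at 1 h, 12 and 13 at 4 h, and 2 and 19 between the time points. The median log2 fold change of the 46 genes was 0.10, -0.10 and -0.30 in that order. Most list genes named here were picked by their p-values. Those named without a fold change, and *Rhbdf2*, *Tgfb1*, *Spi1* and *Runx1*, were added after their values were seen.

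Among EGF family ligands that are not in the set, 3 of 7 were tested, none passed at 1 h (20.1% of all tested genes were called), and at 4 h *Nrg1* was called higher and *Nrg2* lower (40.0% of all). *Nrg1*, which encodes neuregulin 1, had 0 to 2 counts in an untreated library and 65, 54, 27 and 41 counts in mice 1 to 4 at 4 h. It passed the filter only through the libraries of 4 h, so its call carries no weight and its p is not given. *Nrg2* had 11 to 23 counts in an untreated library, 8 to 13 at 1 h and 2 to 16 at 4 h, and passed the filter only through the untreated libraries, so the same holds for its call. The receptors were rare or did not pass, as *Egfr* had 13 to 28 counts in a library and log2 fold changes of -0.41 and -0.38 (adjusted p = 0.253 and 0.21), and *Erbb2* and *Erbb4* were not tested.

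All 7 genes of shedding and feedback were tested. At 1 h, where 20.1% of all tested genes were called, 1 rose and none fell: *Errfi1*, shown above with its CRE, went from 10.5, 9.90, 11.3 and 9.77 CPM in mice 1 to 4 to 57.6, 60.3, 43.3 and 39.2 CPM, a 4.82-fold rise (log2 fold change 2.27, SE 0.13, adjusted p = 5.59e-09). At 4 h it was 1.59-fold higher (adjusted p = 0.000795), *Adam10*, which encodes another sheddase of these ligands, and *Timp3* were also higher, and 2 genes were lower, where 19.7% of all tested genes were called higher and 20.4% lower. *Adam17*, which encodes the main sheddase of EGF family ligands, fell 1.70-fold (log2 fold change -0.76, SE 0.07, adjusted p = 1.07e-06), and *Rhbdf1*, which encodes a rhomboid-like partner of ADAM17, fell 1.90-fold (-0.92, SE 0.16, adjusted p = 0.000241). *Rhbdf2*, which encodes another such partner, had a log2 fold change of 0.03 (adjusted p = 0.711). *Adam17* was at 405 to 464 CPM in untreated libraries and at 235 to 269 CPM at 4 h.

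Of 12 genes around IGF signaling, 7 were tested. At 1 h, where 10.0% of all tested genes were called higher, *Irs2*, which encodes an adaptor of the insulin and IGF1 receptors, rose 2.09-fold (log2 fold change 1.06, SE 0.11, adjusted p = 3.9e-06), and at 4 h it was at -0.21 (adjusted p = 0.147). At 4 h, 1 gene rose and 2 fell, where 19.7% of all tested genes were called higher and 20.4% lower. *Igf2r*, a clearance receptor for IGF2, rose 1.46-fold (adjusted p = 0.00557), and *Igfbp4*, which encodes an IGF-binding protein, fell 1.42-fold (adjusted p = 0.00159). *Insr*, the insulin receptor gene, fell 1.15-fold (adjusted p = 0.0168), a call lost without mouse 1 untreated or at 4 h (adjusted p = 0.0583 and 0.0555, in a range from 0.00622 to 0.0583). *Igf1r*, the receptor of IGF1, had log2 fold changes of -0.06 and -0.11 (adjusted p = 0.857 and 0.65).

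In the PDGF and VEGF family, 7 of 13 genes were tested, and *Vegfa* had the largest rise. *Vegfa*, which encodes the main angiogenic factor of the family, had 28.0 to 59.7 CPM in untreated libraries, 528 to 730 CPM at 1 h and 338 to 455 CPM at 4 h. This was a 14.1-fold rise at 1 h (log2 fold change 3.82, SE 0.19, adjusted p = 1.71e-09) and an 8.23-fold rise at 4 h (3.04, SE 0.19, adjusted p = 1.04e-08). At 4 h, 2 genes of the list were higher (*Vegfa* and *Kdr*) and 4 lower (*Nrp1*, *Nrp2*, *Pdgfc* and *Vegfb*), where 19.7% of all tested genes were called higher and 20.4% lower. The neuropilin genes, whose products are co-receptors of VEGF, fell 2.28-fold for *Nrp1* (adjusted p = 7.5e-09) and 1.53-fold for *Nrp2* (adjusted p = 6.18e-07).

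In the list of other colony-stimulating factors, *Csf3r*, the G-CSF receptor gene, fell 1.81-fold at 4 h (adjusted p = 1.22e-05), next to the rises of *Csf2rb* and *Csf2rb2*. Of 11 other growth factor genes, 9 were tested, with 3 higher and 1 lower at 1 h (20.1% of all tested genes were called) and 2 higher and 2 lower at 4 h (40.0% of all). *Tgfb3*, which encodes a TGF-beta ligand, rose 14.9-fold at 1 h and 11.7-fold at 4 h (adjusted p = 4.14e-10 and 9.05e-10), and *Hgf*, the hepatocyte growth factor gene, rose 1.54-fold at 1 h (adjusted p = 3.56e-05) and 1.17-fold at 4 h (adjusted p = 0.0369). *Tgfb1* was also higher at 1 h (1.16-fold, adjusted p = 0.0483, just under the threshold), with overlapping groups. *Bmp2*, which encodes a bone morphogenetic protein, fell 2.39-fold and 4.17-fold (adjusted p = 0.0121 and 0.000176), and *Gdf3*, a factor of the same superfamily, fell 1.84-fold at 4 h (adjusted p = 0.000977).

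**Figure D5:**
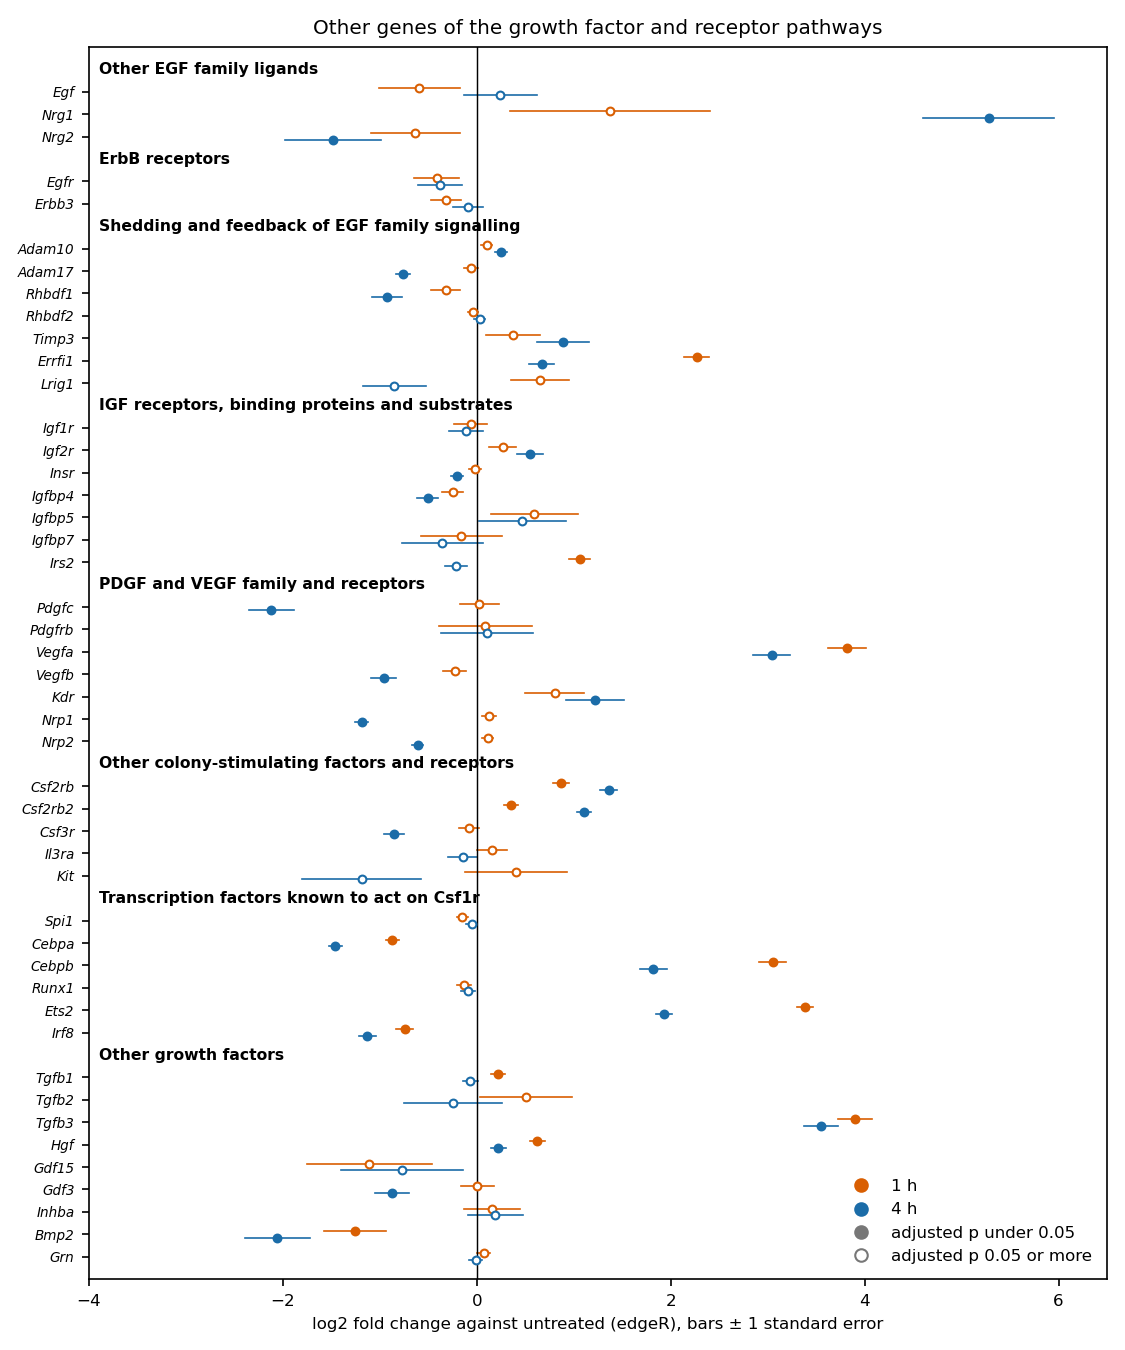
Log2 fold changes from edgeR against untreated BMDMs at 1 h and 4 h for the 46 tested genes of the 8 pathway lists, with bars of 1 standard error; filled points have an adjusted p under 0.05. The points farthest to the right are *Nrg1* at 4 h, whose untreated counts are near 0, and *Vegfa*, *Tgfb3*, *Ets2* and *Cebpb*, and *Pdgfc* and *Bmp2* at 4 h lie farthest to the left.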

How the data were processed

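RNA of BMDMs from 4 mice was sequenced from 1 strand-specific poly(A) library per sample (50-base single-end reads), in 3 groups of 4 libraries. Before deposit, the authors mapped the reads to GRCm38 with TopHat2 2.0.11 and counted them per gene with HTSeq 0.8.0, according to the submitters' processing notes, and what they deposited are raw read counts, not normalized. The strand option and the annotation release are not given in the sources used here. Of the 53379 genes listed, 53274 were matched to symbols and coordinates of GENCODE M21.

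From these counts, genes were filtered with filterByExpr (minimum count 10), scaled by TMM and tested with the quasi-likelihood test of edgeR 4.0.16 in R 4.3.3, in 1 fit over 12 libraries that had 3 group means as its terms, for 1 h and 4 h against untreated and for 4 h against 1 h. This main fit had no term for the mouse, although every mouse was in every group, and the mouse as a block was an alternative. Multiplicity was handled by the Benjamini-Hochberg method over 12386 genes in each comparison. In the paper, counts were normalized with vsn and tested with limma. Levels per length used the exon bases of a gene in GENCODE M21. A group without counts was given a limit of 3 counts over the group, and intervals cover counting error only. The biological coefficient of variation was 0.112. Alternatives were DESeq2 1.42.0, limma-voom and limma-trend (limma 3.58.1), RLE scaling, library size alone, no filter, a fit of just the 2 groups under comparison, a minimum mean count of 50, a block for the mouse, and each library left out. On simulated counts for 1 h against untreated (12242 genes), edgeR recovered 175 of 200 changed genes (87.5%, with 198 of the 200 tested) with 9 false calls, and it called 0 genes in an unchanged comparison. The simulated counts had no mouse effect and a smaller share of changed genes than was called in the data. They do not show how the fit behaves on libraries paired by mouse.

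The labels number the mice, and equal numbers mark libraries of 1 animal. Deviations from the group means correlated between them with Pearson's r from 0.296 to 0.576 (12 pairs), and between different mice with r from -0.318 to 0.114 (36 pairs). Libraries of a group differed by more than counting error, with a chi-square statistic per degree of freedom of 9.63 to 20.0 (18 pairs).

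The genes and pathway lists were chosen with earlier results of these data known. All 10 genes of the set are named, and from each list up to 3 genes with the smallest p among the called at each time, plus *Csf2rb*, *Csf2rb2*, *Il34*, *Egfr* and *Igf1r*. Some other list genes, such as *Rhbdf2*, were named after their values were seen. Results for 1 gene of the lists are not reported here, and it was left out of their counts. The 3 genes most like each tested gene were found by Pearson's r of log2(CPM + 0.5) over the 12 libraries. Promoter windows and motifs came from RefSeq (GRCm38.p6), and figures were drawn with matplotlib 3.10.9.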

Additional observations from a re-analysis of the deposited data

Results flagged for a closer look

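*Csf1* in untreated mouse 4 stood apart from the other untreated libraries, at 7.13 CPM against 14.1 to 14.3 CPM, with a gap of 0.962 of the range of the group. *Ereg* at 1 h had 1 count in mouse 2 and 0 in the others, so that its gap was the whole range (1), which rests on a single read. Of 23 groups of 4 libraries examined in this way, 2 were over the limit, and chance gives about 1 in 20, or 1.15 here.

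The effects at 1 h and 4 h differed for 3 genes by the test of 4 h against 1 h. The difference was -1.57 on the log2 scale for *Hbegf*, which rose at 1 h, -1.36 for *Igf1*, which fell at 4 h, and 0.96 for *Csf1*, which rose at 4 h. With the mouse as a block, *Pdgfb*, *Csf1r* and *Csf2ra* also passed (-0.27, -0.17 and -0.17, adjusted p = 0.00685, 0.00996 and 0.0257).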

How the results depend on the processing

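Under the alternatives that kept all libraries, 539 results were kept, 4 changed sign, 4 lost their call and 4 gained one. With a library left out these numbers were 703, 10, 30 and 1. A fold change was kept if it stayed on its side of the threshold and in its direction. The kept results also include the numbers of genes called, which were kept if they stayed within 1.5 times. The numbers of genes called over all genes and over the pathway lists stayed within 1.5 times in every alternative. Values near 0 that did not pass changed sign for *Csf2ra* at 4 h (limma-voom -0.0017, limma-trend -0.0026, mouse as a block -0.0018) and for *Igf1* at 1 h (library size alone -0.0511). Calls at 4 h were lost for *Csf1r* with limma-trend (-0.27) and for *Pdgfa* with library size alone (-0.45), without a filter (-0.47) and with only the 2 groups compared (-0.48). With the mouse as a block, *Csf2ra* at 1 h (0.17) and, from 1 h to 4 h, *Pdgfb* (-0.27), *Csf1r* (-0.17) and *Csf2ra* (-0.17) passed the threshold, no other call on the 7 genes changed, and 3348, 5870 and 5775 genes were called in the 3 comparisons against 2491, 4958 and 4773. The cause was not tested. With 1 library left out, log2 fold changes ranged from 1.00 to 1.53 for *Hbegf* at 1 h, from -0.64 to 0.0332 at 4 h, from -0.0134 to 0.0782 for *Igf1* at 1 h, from -0.61 to -0.36 for *Pdgfa* at 4 h, from 0.48 to 0.83 for *Csf1* at 4 h, from -0.35 to -0.21 for *Csf1r* at 4 h and from -0.26 to -0.10 from 1 h to 4 h, from -0.0501 to 0.0812 for *Csf2ra* at 4 h, from 0.0902 to 0.24 at 1 h and from -0.24 to -0.0838 from 1 h to 4 h, from -0.38 to -0.15 for *Pdgfb* from 1 h to 4 h, and from -0.20 to 0.0308 for *Igf1r* at 1 h. A mean count of at least 50 gave no value for *Hbegf*, which it removed. Depth limits *Areg*, *Ereg*, *Tgfa* and *Hbegf*, which had at most 46 counts in a library.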

Other observations

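Markers of endothelial cells, some of which macrophages also express, were summed over 4 genes and reached 3.46 to 7.27 CPM in untreated libraries, 5.96 to 10.3 CPM at 1 h and 18.0 to 22.4 CPM at 4 h. *Kdr*, a VEGF receptor gene that is also on the VEGF list, had means of 3.74, 6.51 and 8.73 CPM in these groups. *Pecam1* encodes an adhesion molecule and had 12 to 30 counts in an untreated library, 12 to 30 at 1 h and 150 to 241 at 4 h (edgeR's quasi-likelihood test, log2 fold change 2.97 at 4 h, adjusted p = 1.62e-06). *Cdh5*, which encodes the endothelial cadherin, had 1 to 8 counts untreated and 19 to 32 at 4 h, and *Tek* had 0 to 3 counts in all libraries. The sum of 4 osteoclast markers was 10.9 to 18.3 CPM untreated, 12.5 to 19.9 CPM at 1 h and 8.78 to 12.3 CPM at 4 h, and *Calcr* was at 0 in all 12 libraries. *Dcstamp*, which encodes a fusion protein of osteoclast precursors, fell by 0.80 on the log2 scale at 4 h (adjusted p = 0.00548). The osteoclast markers *Ctsk* and *Acp5* did not pass the test at 4 h (log2 fold changes -0.24 and -0.06, adjusted p = 0.627 and 0.808). The sum of 6 granulocyte markers was 17.4 to 34.5 CPM over all libraries and that of 4 dendritic cell markers 0.236 to 1.32 CPM. The part of other cell types in the results was not tested. These genes were named after their values were seen.

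The genes with the level most like that of each tested gene, by Pearson's r over the 12 libraries, are given as a description, since the libraries share 3 groups and 4 mice. For *Igf1* they were *Mtdh* (0.997), *Mitf* (0.994) and *Calcrl* (0.992), and for *Pdgfb* they were *Nuak1* (0.990), *C2cd5* (0.983) and *Etv3* (0.983). *Csf1* was nearest to *Naip2* (0.950), *Parp3* (0.932) and *Grap* (0.929), and *Hbegf* to *Clk1* (0.933), *Rdx* (0.916) and *Aff1* (0.915). *Csf1r* was nearest to *Tmem176a* (0.940), *Sft2d2* (0.935) and *Vsir* (0.934), *Pdgfa* to *Pafah2* (0.916), *Smc1a* (0.908) and *Tmem273* (0.908), and *Csf2ra* to *Ppia* (0.903), *Ccdc106* (0.900) and *Ptma* (0.888).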
